A study of Oryza sativa with 7 samples.

Results

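Brassinosteroids are the steroid hormones of plants, and 9 rice loci of their synthesis and signalling were followed here by exon-bin read counts in 4 tissues. The 9 were given as a list of locus IDs with names, out of 37858 loci in the deposited tables, and all 9 are present, with 61 exon bins in all. They are BRD2 (Os10g0397400), D11 (Os04g0469800), D2 (Os01g0197100) and BRD1 (Os03g0602300) of synthesis, the receptor D61, also called BRI1 (Os01g0718300), the co-receptor SERK1, also called BAK1 (Os08g0174700), the kinase GSK1 (Os01g0205700), and the transcription regulators BZR1 (Os07g0580500) and DLT (Os06g0127800). The tables themselves hold no gene names. The RefSeq gene table for assembly ASM3414082v1 pairs none of the 9 IDs with a name, but it carries 6 of the 9 names, 5 of them on the chromosome that the ID gives. The exception is GSK1, a name that RefSeq gives to a gene of chromosome 5 while this ID belongs to chromosome 1. The names BRD1, BRD2 and DLT were not found in it. The names of GSK1, BRD1, BRD2 and DLT thus rest on the list alone, and for the other 5 only the chromosome was compared.

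All plants were of the cultivar Ilmi, with no mutant or treatment in the labels. Young panicle (unpollinated flowers, with panicles measuring 0.5 to 1.5 cm), seed (20 to 30 days after pollination, 21 in the sample names) and leaf (14 days) had 2 libraries each, and root (14 days) had 1. The study was titled as a survey of alternative splicing in these organs. Whether the libraries of a tissue are from different plants is not in the labels, so the p-values cover the spread between libraries only, and part or all of it may be technical. The organs are mixtures of cells, so fewer cells of a type and less RNA per cell cannot be told apart. Leaf, seed, panicle and root markers could not be looked up, because the tables give no gene names.

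In rice, sterol precursors are reduced by BRD2, a homologue of Arabidopsis DWF1, and then oxidised by cytochrome P450 enzymes, among them D11 (CYP724B1), D2 (CYP90D2) and, near the end of the route, BRD1 (CYP85A1). The hormone is bound at the cell surface by the receptor kinase D61, which works with co-receptor kinases of the SERK family. In the absence of the signal, GSK3-like kinases phosphorylate BZR1 and keep it inactive, and when the signal is on, BZR1 enters the nucleus and sets the hormone's target genes. DLT, a GRAS-family protein, acts on the same side of the pathway as BZR1. Rice plants that lack D61, D2, D11, BRD1, BRD2 or DLT function are dwarfed, with erect leaves in several of them.

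Bin counts came to between 11989260 (seed 2) and 49312943 (leaf 2) per library. Levels are given as CPM, counts scaled to library size in edgeR with TMM factors. Such a factor corrects for abundant loci that take up much of a library. The lowest factor was 0.781, in leaf 2, and the highest 1.51, in panicle 1. No locus lengths are given in the tables, so levels are compared between tissues and not between loci. A difference was called at an edgeR adjusted p under 0.05 over 26784 tested loci and a fold of 2 or more. With 1 library, root is taken in each test to vary as much as the replicated tissues do. The 6 pairs of tissues share libraries, so their results are not independent.

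By the share of read pairs of ambiguous position, the libraries were split at 0.3% into 2 sets that do not follow the tissues. Such pairs made up 0.364% to 0.443% of counts in leaf 1, root 1 and seed 1, and 0.0266% to 0.215% in the 2 panicle libraries, leaf 2 and seed 2. Across 8364 loci of 2 or more bins, libraries of 1 set but different tissues differed in bin use by a median of 4.56% to 9.31% of a locus's counts, the 2 pairs of the same tissue but different sets by 9.37% and 10.1%, and the 10 pairs that differed in both by 9.21% to 10.998%. These ranges overlap: seed 1 differed from panicle 1 of the other set by 9.21% and from leaf 1 of its own set by 9.31%, so the sets are not cleanly separated in bin use. Both panicle libraries are in 1 set and root in the other, so for panicle against root the set and the tissue cannot be told apart except through leaf and seed in a model with both terms. The labels name no batch.

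D2 and GSK1 could be measured only on a small part of their length. Of the 10 bins of D2, 8 had at most 1 count over all 7 libraries, and the 113 counts of this locus lay almost all in bins 9 and 10. Of the 8 bins of GSK1, 7 had at most 1 count, and bin 1 held 2581 of its 2582 counts. Of all loci with 2 or more bins and 100 or more counts, 5.66% had as many or more bins this empty as bins with counts. The locus listed after D2 in the tables, Os01g0197150, had no count in any of its 8 bins, and the one after GSK1, Os01g0205800, had at most 1 count in 6 of its 8 bins. In each library, 8.44% to 12.1% of all counts were set aside as ambiguous. Whether the missing counts of D2 and GSK1 are among them was not tested. The values of these loci below therefore describe the counted bins and not the whole transcripts.

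**Figure D1:**
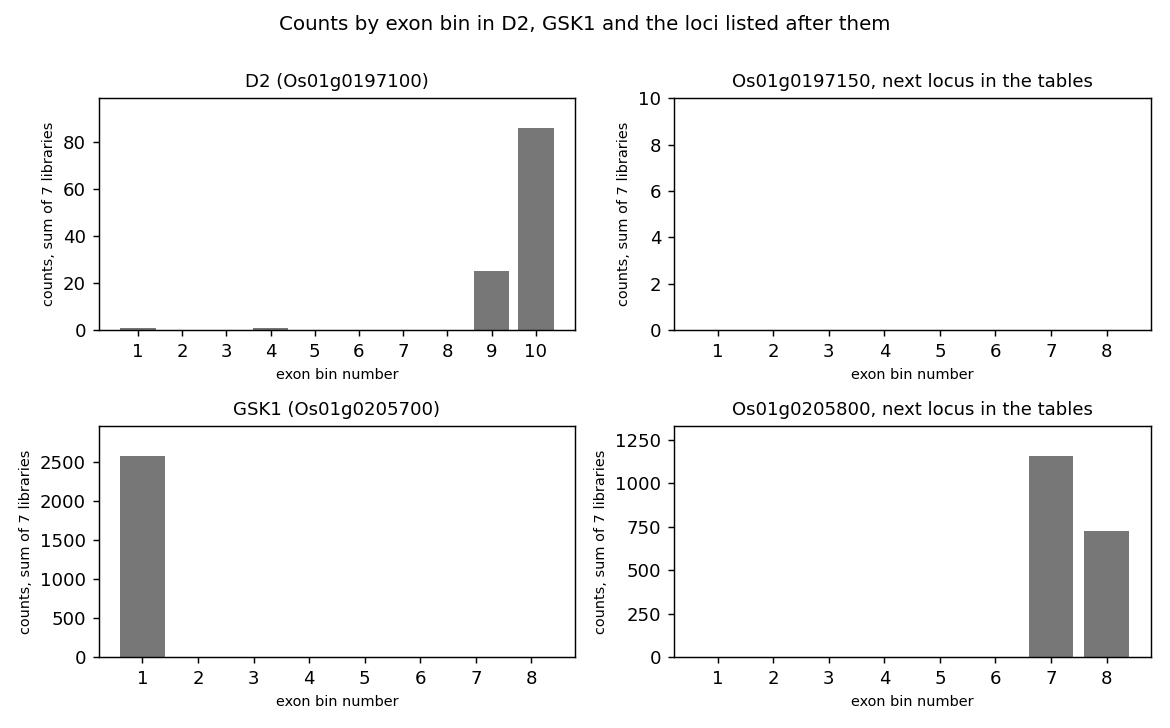
Counts summed over 7 libraries (vertical axis) in each numbered exon bin (horizontal axis) of D2 and GSK1, left, and of the loci that follow them in the tables, right. Counts stand in bins 9 and 10 of D2, in bin 1 of GSK1 and in bins 7 and 8 of Os01g0205800, and Os01g0197150 has none.

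The synthesis loci did not share 1 pattern over the tissues. D11 was higher in panicle than in seed and leaf, BRD1 was lower in panicle than in seed, and no difference of BRD2 or D2 was called. D11, a cytochrome P450, had 25.9 and 41.6 CPM in the panicle libraries, 3.61 and 5.70 in seed, 6.73 and 6.88 in leaf, and 15.5 in root. Both panicle libraries lay above every other library, and root lay above leaf and seed. In panicle D11 was 7.30-fold above seed (log2 fold change 2.87, SE 0.42, edgeR adjusted p = 0.00466) and 4.96-fold above leaf (log2 2.31, SE 0.40, edgeR adjusted p = 0.00672). Against root it was 2.18-fold higher in panicle, which was not called (log2 1.12, SE 0.50, edgeR adjusted p = 0.132). In seed D11 fell below root, with a log2 fold change of -1.74 (SE 0.46, edgeR adjusted p = 0.0412). The call against leaf was lost without leaf 1 or leaf 2 (edgeR adjusted p = 0.0646 for each), with log2 fold changes of 2.29 and 2.32. The call of seed against root was lost without leaf 1, leaf 2, panicle 1, panicle 2 or seed 1 (edgeR adjusted p = 0.0922, 0.0914, 0.0729, 0.0779 and 0.0581), with log2 fold changes of -1.74, -1.74, -1.62, -1.62 and -1.44. It was also lost with the largest bin of the locus (-1.40, edgeR adjusted p = 0.116) and with only seed and root in the fit (-1.69, edgeR adjusted p = 0.212).

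BRD1, which encodes an enzyme of the last oxidation steps, ran the other way. It had 19.6 and 17.9 CPM in panicle, 77.8 and 43.8 in seed, 37.4 and 37.6 in leaf, and 20.8 in root. Both seed libraries were above all others, although they differed from each other by more than the 2 libraries of any other tissue did, and leaf was above panicle and root. In panicle BRD1 fell below seed, with a log2 fold change of -1.70 (SE 0.35, edgeR adjusted p = 0.0139). The log2 fold change of panicle over leaf was -1.001 (SE 0.34, edgeR adjusted p = 0.0668), which was not called. Seed over root came to 1.55 (SE 0.45, edgeR adjusted p = 0.0526) and seed over leaf to 0.70 (SE 0.34, edgeR adjusted p = 0.165), neither called. The panicle against seed call was lost without panicle 1 or panicle 2 (log2 -1.77 and -1.66, edgeR adjusted p = 0.0722 and 0.0867) and without scaling factors (log2 -0.93, edgeR adjusted p = 0.104). Panicle against leaf was called without seed 1 or seed 2, with nearly the same log2 fold change (-1.002 for each, edgeR adjusted p = 0.0113 and 0.0103). Seed against root was called without seed 1 or seed 2 (log2 1.08 and 1.91, edgeR adjusted p = 0.0449 and 0.00609), and seed against leaf without seed 2 (log2 1.06, edgeR adjusted p = 0.0208). Within the set of libraries that holds panicle, leaf 2 and seed 2, the log2 ratio of panicle over seed was -1.20, a smaller difference than with both seed libraries.

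BRD2, the sterol reductase of the early route, had 165 and 156 CPM in panicle, 121 and 51.7 in seed, 78.5 and 90.9 in leaf, and 213 in root. The 2 seed libraries stood on either side of leaf, while panicle and root lay above all libraries of leaf and seed. No difference of BRD2 was called in any of the 6 pairs. The largest were leaf over root, with a log2 fold change of -1.33 (SE 0.49, edgeR adjusted p = 0.114), and seed over root, with -1.30 (SE 0.49, edgeR adjusted p = 0.106). Seed 1 decided several of these values. Without it the log2 fold change was 1.63 for panicle over seed (edgeR adjusted p = 0.00586) and -2.04 for seed over root (edgeR adjusted p = 0.0045), both called. Seed against root was also called with DESeq2 (-1.36, adjusted p = 0.0414). Leaf against root was called without seed 1 or seed 2, at the same log2 of -1.33 (edgeR adjusted p = 0.00849 and 0.00817).

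D2, which like D11 and BRD1 encodes a cytochrome P450, was near the limit of detection in its counted bins. It had 11 and 15 counts in panicle, 3 and 12 in seed, 8 and 60 in leaf, and 4 in root. The libraries of all replicated tissues overlapped, and no pair was called, with edgeR adjusted p from 0.345 to 0.801. The counts were low, the libraries of leaf and of seed lay far apart, and the SE of the log2 fold change ran from 1.08 to 1.56. How large a difference could have been detected for D2 was not tested.

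**Figure D2:**
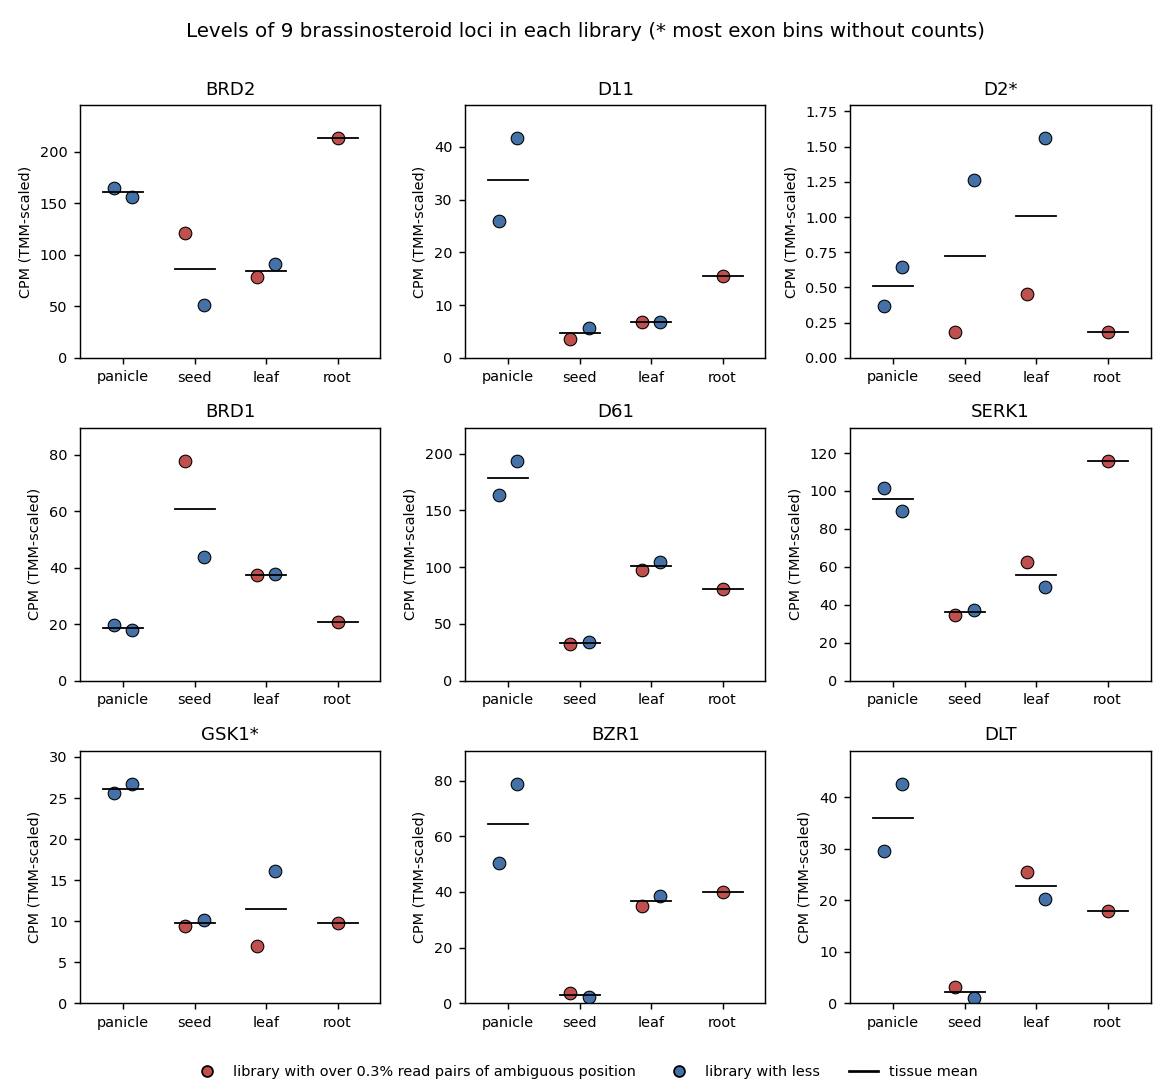
TMM-scaled CPM (vertical axis, from 0) of each locus in each library of panicle, seed, leaf and root (horizontal axis), with red points for the 3 libraries of more ambiguous read pairs, blue points for the other 4, and lines at the tissue means. The seed points of BZR1 and DLT lie far below all others, and those of BRD1 lie above all others.

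The receptor D61 was higher in panicle than in seed and root, and lower in seed than in each other tissue. It had 164 and 193 CPM in panicle, 32.2 and 34.1 in seed, 97.1 and 104 in leaf, and 81.0 in root. The tissues did not overlap, in the order panicle, leaf, root, seed. In panicle D61 was 5.39-fold above seed (log2 2.43, SE 0.27, edgeR adjusted p = 0.00206) and 2.20-fold above root (log2 1.14, SE 0.33, edgeR adjusted p = 0.0439). In seed it fell below leaf (log2 -1.60, SE 0.27, edgeR adjusted p = 0.00651) and below root (log2 -1.29, SE 0.31, edgeR adjusted p = 0.0293). Of the neighbours in this order, panicle and leaf were not called apart, nor were leaf and root, with log2 fold changes of 0.83 for panicle over leaf (SE 0.26, edgeR adjusted p = 0.0516) and 0.31 for leaf over root (SE 0.32, edgeR adjusted p = 0.579).

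The calls of D61 differed in how far they held across the alternatives. A library outside a pair still adds to the scaling and the spread that the tests share. A call can thus be lost without it. Panicle against seed was called in each of 17 alternatives, with log2 fold changes from 2.28 to 3.22. Panicle against root was lost in 10 of 16, among them the model with the library sets (log2 1.05, edgeR adjusted p = 0.114) and the fits without leaf 1, leaf 2, panicle 1 or panicle 2 (1.14, 1.14, 1.37 and 1.12, edgeR adjusted p = 0.0967, 0.0954, 0.0948 and 0.145). Seed against leaf was lost without leaf 2 (log2 -1.55, edgeR adjusted p = 0.055). Seed against root was lost without leaf 1, leaf 2, panicle 1 or panicle 2 (log2 -1.29, -1.29, -1.16 and -1.17, edgeR adjusted p = 0.0762, 0.0751, 0.0881 and 0.0856). It was also lost with the largest bin (-1.14, edgeR adjusted p = 0.0792) and with only both tissues in the fit (-1.25, edgeR adjusted p = 0.210).

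SERK1, the co-receptor, was lower in seed than in panicle and root, and seed against leaf was not called. It had 102 and 89.5 CPM in panicle, 34.7 and 37.4 in seed, 62.4 and 49.4 in leaf, and 116 in root. Root was the highest library and seed the lowest tissue, and no 2 tissues overlapped. SERK1 was 2.65-fold higher in panicle than in seed (log2 1.41, SE 0.27, edgeR adjusted p = 0.0118) and fell in seed below root (log2 -1.68, SE 0.32, edgeR adjusted p = 0.0142). The call against root was lost with only both tissues in the fit (-1.64, edgeR adjusted p = 0.121). Seed over leaf was -0.63 on the log2 scale (SE 0.27, edgeR adjusted p = 0.122). Panicle over root was -0.28 on the log2 scale (SE 0.33, edgeR adjusted p = 0.546), and its sign turned to 0.24 with the largest bin of the locus or without scaling factors. The lower level in leaf than in root, a log2 fold change of -1.05 (SE 0.32, edgeR adjusted p = 0.0665), was not called. It was called without seed 1 or seed 2, at the same log2 (edgeR adjusted p = 0.0291 and 0.0279), and with DESeq2 (-1.18, adjusted p = 0.00315). Panicle against seed was lost without panicle 1 or panicle 2 (log2 1.30 and 1.48, edgeR adjusted p = 0.0769 and 0.0583).

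GSK1, listed as a GSK3-like kinase, is represented by 1 bin. That bin had 25.6 and 26.7 CPM in panicle, 9.37 and 10.1 in seed, 6.96 and 16.1 in leaf, and 9.72 in root. Both panicle libraries lay above all others, and the 2 leaf libraries lay on either side of seed and root. No pair was called for GSK1. Panicle over seed had a log2 fold change of 1.42 (SE 0.45, edgeR adjusted p = 0.055), just short of the threshold, and it passed in 8 of 17 alternatives, among them DESeq2 (1.42, adjusted p = 0.0173) and the fits without leaf 1 or leaf 2 (both 1.42, edgeR adjusted p = 0.0451 and 0.0469).

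The transcription regulators BZR1 and DLT had the widest range of CPM, as highest over lowest library, of the 9 loci, and in both it was seed that stood apart. BZR1, the factor that the pathway switches on, had 50.3 and 78.9 CPM in panicle, 3.49 and 2.22 in seed, 35.1 and 38.7 in leaf, and 40.1 in root. Its counts in seed were 57 and 21, against 616 to 1830 in the other 5 libraries. In seed BZR1 fell below leaf, with a log2 fold change of -3.67 (SE 0.40, edgeR adjusted p = 0.00163), and below root, with -3.79 (SE 0.43, edgeR adjusted p = 0.00341). In panicle it was 22.3-fold above seed (log2 4.48, SE 0.41, edgeR adjusted p = 0.00138). All 3 calls held in every alternative run, 17 for panicle against seed and for seed against leaf and 16 for seed against root. Among panicle, leaf and root no difference of BZR1 was called, with log2 fold changes of 0.81 for panicle over leaf (SE 0.35, edgeR adjusted p = 0.124), 0.69 for panicle over root (SE 0.44, adjusted p = 0.270) and -0.12 for leaf over root (SE 0.42, adjusted p = 0.900).

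DLT, the GRAS protein, has a single bin, so its count is not a sum over bins. It had 29.5 and 42.6 CPM in panicle, 3.19 and 1.06 in seed, 25.4 and 20.1 in leaf, and 17.8 in root. Seed 2 held 10 counts and seed 1 held 52, and every other library held 385 or more. DLT was 16.4-fold higher in panicle than in seed (log2 4.04, SE 0.56, edgeR adjusted p = 0.00397). In seed it fell below leaf, with a log2 fold change of -3.38 (SE 0.55, edgeR adjusted p = 0.00602), and below root, with -3.02 (SE 0.60, edgeR adjusted p = 0.0165). Each kept its direction without any 1 library, but their size varied. Log2 fold changes then ran from 3.49 to 5.08 for panicle over seed. They ran from -4.42 to -2.83 for seed over leaf and from -4.07 to -2.48 for seed over root. The values 5.08, -4.42 and -4.07 are those without seed 1, where seed rests on the 10 counts of seed 2. Seed against root was lost with only these 2 tissues in the fit (log2 -3.02, edgeR adjusted p = 0.0899). Within the library sets, the log2 ratio of seed over leaf was -2.81 for seed 1 against leaf 1 and -3.73 for seed 2 against leaf 2, and for BZR1 it was -3.16 and -3.85.

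**Figure D3:**
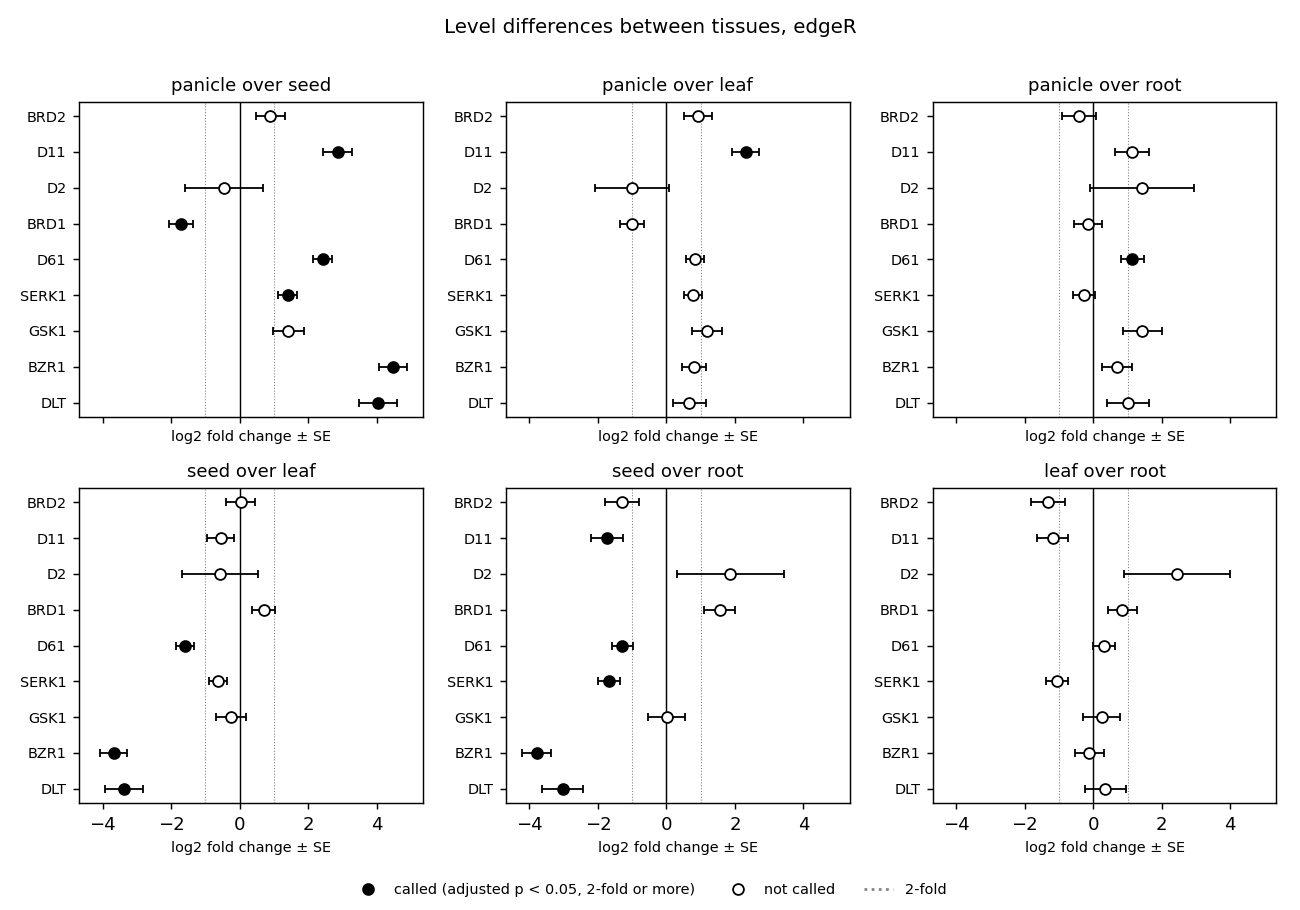
Log2 fold change with its standard error (horizontal axis) of each locus (vertical axis) in the 6 pairs of tissues, by edgeR over 7 libraries, with filled points for called differences and dotted lines at 2-fold. Filled points stand in 14 of 27 tests that involve seed and in 2 of the 27 others, and these tests share libraries. Of all tested loci, 20.2% to 29.3% were called in the pairs with seed and 18.1% to 30.0% in the others.

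Across the list, calls lay almost wholly in the comparisons with seed. For panicle against seed 5 of 9 loci were higher in panicle (D11, D61, SERK1, BZR1 and DLT) and 1 was lower (BRD1), where 27.2% of all tested loci were called, 10.1% higher and 17.1% lower in panicle. The median log2 fold change was 1.42 over the 9 loci, 2.43 without D2 and GSK1, and -0.10 over all loci. For seed against root 5 of 9 fell in seed (D11, D61, SERK1, BZR1 and DLT) and none rose, with 20.2% of all loci called, 9.50% higher and 10.7% lower in seed. The medians were -1.30 over the list, -1.68 without D2 and GSK1, and 0.09 over all loci. For seed against leaf 3 of 9 fell (D61, BZR1 and DLT) and none rose, where 29.3% of all loci were called, 11.2% higher and 18.1% lower in seed. A share of 3 in 9 is near that background. The medians there were -0.57 over the list, which is the value of D2, -0.63 without D2 and GSK1, and -0.08 over all loci.

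Among panicle, leaf and root the list showed few calls. For panicle against leaf only D11 was called, higher in panicle, with 30.0% of all loci called, 8.75% higher and 21.3% lower in panicle. For panicle against root only D61 was called, also higher in panicle, with 28.2% of all loci called, 10.2% higher and 18.0% lower in panicle. These are counts of 1 in 9, below the background for both directions and near that of loci higher in panicle. For leaf against root edgeR called none of the 9, with 18.1% of all loci called, 10.8% higher and 7.23% lower in leaf. There 3 of the 9 had an unadjusted p under 0.05, a count for which the share over all loci was not taken. DESeq2 called 2 of the 9, BRD2 and SERK1, where it called 6345 of 26784 loci. The median log2 fold changes of the list were 0.81 for panicle over leaf, 1.02 for panicle over root and 0.25 for leaf over root, and those of all loci were -0.08, 0.05 and 0.07. Without D2 and GSK1 the list's medians were 0.81 for panicle over leaf, 0.69 for panicle over root and -0.12 for leaf over root, where the sign turned. Without scaling factors the medians of all loci moved to 0.63 for panicle over seed, 0.75 for panicle over leaf, 0.56 for panicle over root, 0.00 for seed over leaf, -0.13 for seed over root and -0.26 for leaf over root. Of all called loci, the share higher in panicle was then 67.6% against seed, 66.0% against leaf and 53.4% against root, where it had been 37.2%, 29.2% and 36.1%, and the share higher in leaf than in root was 47.7%, where it had been 60.0%. The number of the 9 called for panicle against leaf was then 7, so it depends on the scaling. In that fit 11894 of 26784 loci were called, where 8040 had been. No value was set relative to these medians, so each is to be read beside the median of all loci in its fit.

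**Figure D4:**
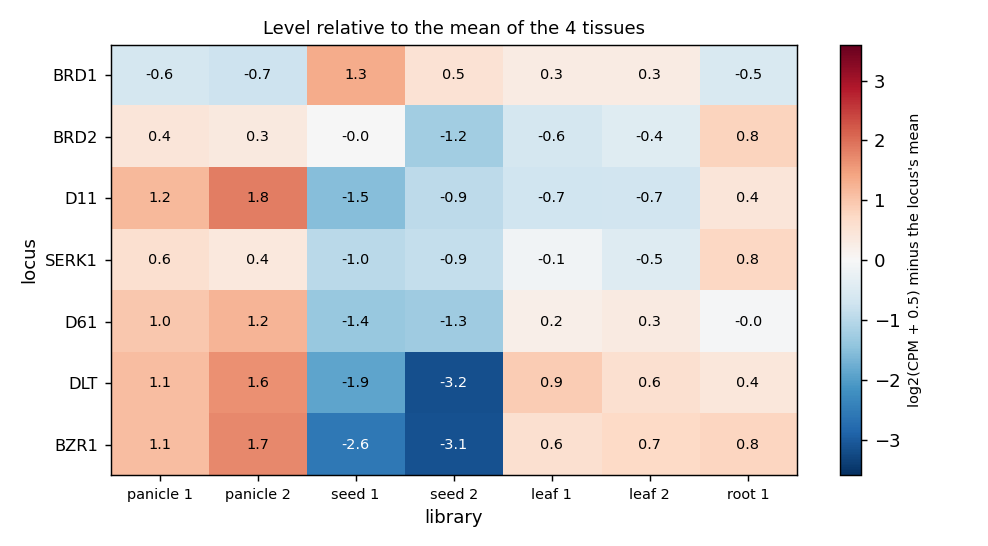
Level of the 7 loci other than D2 and GSK1 (rows) in each library (columns), as log2(CPM + 0.5) minus the mean of the 4 tissues of that locus, with red above and blue below that mean. Both seed libraries are blue for D61, SERK1, D11, BZR1 and DLT and red for BRD1, the reverse of panicle.

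The loci that moved alike were described by Pearson correlation of log2(CPM + 0.5) over the 7 libraries. These points share libraries and fall into 4 tissues, so the coefficients are descriptions with no test. BZR1 and DLT had the highest Pearson r of the 36 pairs of loci, 0.99, with Spearman's rho = 0.86. By rho the highest was D11 with BZR1 (rho = 0.96, r = 0.76). D61 followed with BZR1 (r = 0.95, rho = 0.86) and with DLT (r = 0.94, rho = 0.93). D11 and BRD1, 2 enzymes of the same route, had the most opposed profiles (r = -0.94, rho = -0.96), and BRD1 was also opposed to SERK1 (r = -0.93, rho = -0.86). Of 12853 loci with a mean of 10 CPM or more outside the list, Os10g0394200 (r = 0.997) and Os03g0722400 (r = 0.994) were the most like D61, and 161 had r over 0.95. Os10g0394200 had 28.3 and 35.8 CPM in panicle, 0.613 and 0.528 in seed, 9.30 and 10.8 in leaf, and 4.77 in root.

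Exon usage asked whether a bin's share of its locus's counts differed between tissues, beyond any change of the whole locus. Of the 9 loci, 6 had 2 or more bins with enough counts (D61, D11, BRD1, BRD2, BZR1 and SERK1), and DLT, D2 and GSK1 had fewer. Without the filter on bins D2 and GSK1 entered the test too, and neither was called in any pair. No locus of the 6 was called in any of the 6 pairs (edgeR diffSpliceDGE, Simes p per locus, adjusted over 18512 loci), where 0.113% of loci were called for panicle against seed, 0.227% for panicle against leaf, 0.124% for panicle against root, 0.157% for seed against leaf, 0.0432% for seed against root and 0.0756% for leaf against root. Of these 36 tests 3 had an unadjusted p under 0.05, a count for which the share over all loci was not taken. They were SERK1 and D61 for panicle against root and BRD2 for panicle against seed, with edgeR adjusted p of 0.838, 1 and 1. Panicle and root also differ in library set, so set and tissue cannot be told apart in the tests of SERK1 and D61. Voom with diffSplice also called none, and its lowest adjusted p was 0.161, for SERK1 in panicle against root.

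In several loci the high and the low bin shares were divided by library set. Bin 3 of BRD1 held 7.88% and 7.47% in panicle, 1.89% and 7.95% in seed, 1.98% and 7.26% in leaf, and 1.56% in root (95% Wilson interval 0.757% to 3.18%, counting error only). The 3 values under 2% are those of seed 1, leaf 1 and root 1, and the other 4 libraries lay between 7.26% and 7.95% whatever their tissue. Bin 4 was the bin of BRD1 whose mean share ranged most over the tissues. It held 15.8% and 16.6% in panicle, 9.84% and 17.8% in seed, 7.77% and 15.8% in leaf, and 7.13% in root, with the same 3 libraries low.

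BRD2 showed the same split at its last bin. Bin 3 of BRD2 held 6.56% and 7.90% in panicle, 19.9% and 8.98% in seed, 18.5% and 12.8% in leaf, and 21.4% in root (95% Wilson interval 20.3% to 22.6%). Seed 1, leaf 1 and root 1 were the highest 3, and panicle lay below all others. In SERK1, bin 1 held 2.44% and 4.05% in panicle, 5.11% and 3.11% in seed, 9.86% and 4.52% in leaf, and 10.8% in root. Bin 11, whose mean share ranged most in SERK1, held 32.0% and 36.8% in panicle, 30.3% and 30.2% in seed, 26.1% and 34.9% in leaf, and 24.1% in root. Leaf 1 and root 1 were alike in both bins, and leaf 2 was close to panicle.

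In BZR1, which has 2 bins, bin 2 held 16.9% and 25.03% in panicle, 38.6% and 38.1% in seed, 37.2% and 23.8% in leaf, and 37.5% in root. Here seed 2 stood with seed 1, leaf 1 and root 1, but it rests on 8 counts of 21. Of the 4 loci of 2 or more bins with 100 or more counts in every library, D61 varied least in its tissue means, and its bins 3 and 4 together held nearly all its counts. Bin 4 of D61 held 62.8% and 63.8% in panicle, 60.8% and 69.7% in seed, 61.5% and 64.2% in leaf, and 61.5% in root. Here too seed 1, leaf 1 and root 1 lay on 1 side, below all other libraries, though close to panicle 1. D11 had under 100 counts in each seed library, so its shares there are too imprecise to set beside the others.

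**Figure D5:**
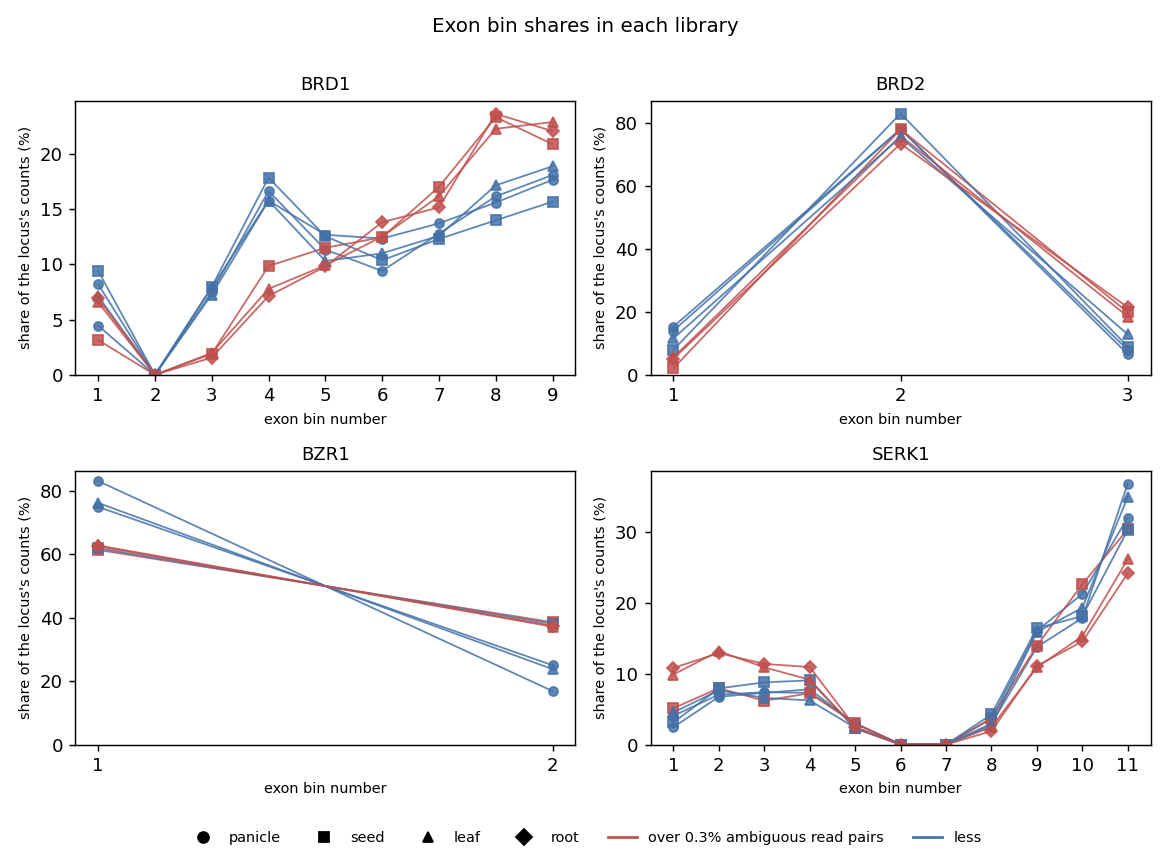
Share of the locus's counts (vertical axis, percent) in each exon bin (horizontal axis, numbered as in the tables) of BRD1, BRD2, BZR1 and SERK1, with 1 line per library, marker shapes for tissues, red for seed 1, leaf 1 and root 1 and blue for the other 4. In BRD1 the red and blue lines part at bins 3 and 4 whatever the tissue.

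Replicates of leaf and of seed, which come from different sets, differed in bin use. To make both leaf libraries alike, the counts that would have to move to another bin came to 14.2% for BRD1, 18.1% for SERK1 and 13.4% for BZR1, above the median of 9.996% over all loci with 100 or more counts in both, and 2.72% for D61, 6.08% for BRD2 and 9.82% for D11, below it. Between the 2 seed libraries it was 21.3% for BRD1, 10.9% for BRD2, 9.49% for D61 and 7.38% for SERK1, against a median of 9.39%. Between the 2 panicle libraries, which share a set, it was 5.61% for BRD1, 6.87% for SERK1, 8.16% for BZR1, 7.12% for D11, 1.28% for D61 and 1.34% for BRD2, against a median of 6.10%. These percentages were not corrected for counting error, so they also depend on the counts and the number of bins of a locus. Loci of the list and the median of all loci were not matched in either. With the set of libraries as a term in the model, no locus of the list was called for exon usage either.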

How the data were processed

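The authors deposited 1 table of raw counts per library, with a row for each exon bin of a locus, whole numbers that are not normalized. Per the submitters' processing notes, the tools were HTSeq, Cufflinks, SAMtools 1.2, Bowtie2, TopHat, TopHat2 2.0.4 and bcl2fastq 1.8.4, and the build was IRGSP-1.0. The step that each served, the strand setting and the filtering of reads were not given in the sources used here. Per the labels' protocols, mRNA libraries were made with the TruSeq kit. Reads of overlapping, antisense or near-identical loci may be lost or split.

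The 5 rows that name no gene (12.2% to 15.8% of counts) were left out. Bin counts were summed per locus, so reads that span bins enter the sum more than once. In R 4.3.3, loci were kept by filterByExpr (minimum count 10 in 1 library) and tested with edgeR 4.0.16 (TMM, glmQLFit, glmQLFTest) in 1 model of 7 libraries with 4 tissue means, and exon usage with diffSpliceDGE. Benjamini-Hochberg adjustment ran over all loci of a pair of tissues. Standard errors were taken as |log2 fold change| divided by the root of the F statistic. Alternatives used DESeq2 1.42.0, limma 3.58.1 and the settings named in the closing section. The scripts were tested on simulated data. The member loci, the lists and the tests were chosen with earlier results of these data known. The named bins are those whose mean share ranged most over the tissues, in loci with 100 or more counts in every library. BRD1 bin 3, SERK1 bin 1, the bins of BZR1 and the split of the libraries at 0.3% of read pairs were chosen after values were seen. A list of other pathway genes and of tissue markers, fixed by symbol, was not used, because 0 of the 9 IDs and 1 of the 37858 were matched in the reference table.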

Additional observations from a re-analysis of the deposited data

How the results depend on the processing

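Of the 16 called differences in level none changed sign in any alternative, and 7 were called in all of them: D61, D11, BZR1 and DLT for panicle against seed, BZR1 and DLT for seed against leaf, and BZR1 for seed against root. Counts of the 9 loci called moved as follows. For panicle against seed (6 as reported) leaving out 1 library gave 4 to 7, and no alternative moved it by over 1.5 times. For panicle against leaf (1) it was 2 with DESeq2, 3 with the largest bin, 3 with only both tissues in the fit, 7 without scaling factors and 0 to 2 without 1 library. For panicle against root (1) it was 0 with RLE factors, no low-count filter, the largest bin, a 4-fold minimum, the replicate block or the library set as a term, 2 with only both tissues, 3 without scaling factors and 0 to 1 without 1 library. For seed against leaf (3) it was 2 to 4 without 1 library. For seed against root (5) it was 3 with the largest bin, 1 with only both tissues, 2 at 4-fold and 3 to 6 without 1 library. For leaf against root (0) it was 2 with DESeq2, 1 with RLE factors, 3 with only both tissues, 2 without scaling factors and 0 to 2 without 1 library. The number called for exon usage was 0 in every pair under each alternative run, with a lowest adjusted p of 0.161 (SERK1, panicle against root, voom). Among all tested loci, leaving out a library took the called number to as low as 3551 of 7286 (panicle against seed, without panicle 2), 3481 of 8040 (panicle against leaf, without leaf 2), 4111 of 7544 (panicle against root, without panicle 1), 2429 of 7858 (seed against leaf, without leaf 2), 2990 of 5420 (seed against root, without leaf 1) and 1757 of 4840 (leaf against root, without leaf 2). Without seed 1 leaf against root had 7359. The fit of both tissues alone gave 10341 of 24551 for panicle against leaf and 9680 of 24575 for panicle against root. It gave 2117 of 24288 for seed against root and 9488 of 24213 for leaf against root. The largest bin gave 8578, 7678 and 5394 of 26151 for panicle against leaf, panicle against root and seed against root. The set term gave 4995 for panicle against root, and a 4-fold minimum 6167 there and 4555 for seed against root. No low-count filter gave 7960 of 32447 for panicle against root. The cause of each move was not tested. Same-numbered libraries deviated together at r = 0.044 (panicle and seed), 0.14 (panicle and leaf) and 0.22 (seed and leaf) across loci, so the numbers were not taken as pairs. The replicate block called 7, 1, 0, 3, 6 and 0 of the 9 in the 6 pairs, in the order above. Of all 26784 loci it called 7933, 8739, 7630, 8461, 5656 and 4888. Without scaling factors 11894 were called for panicle against leaf, 8001 for panicle against root and 5177 for leaf against root. DESeq2 called 9404 for panicle against leaf and 6345 for leaf against root. RLE factors gave 7620 for panicle against root and 4997 for leaf against root. Low counts limit D2, and the seed values of DLT, BZR1 and D11.

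Signs turned in uncalled values only. In log2 fold change, without scaling factors D2 was 0.39 for panicle over seed, BRD1 0.37, BRD2 0.11 and SERK1 0.24 for panicle over root, GSK1 -0.27 for seed over root, and D61 -0.082, DLT -0.042 and GSK1 -0.15 for leaf over root. With the library set as a term, panicle over root was -0.77 for D2, 0.26 for BRD1 and 0.095 for BRD2, seed over leaf -0.094 for BRD2, seed over root -0.30 for GSK1 and leaf over root -0.18 for GSK1. With the replicate block, panicle over root was 0.0094 for BRD1, seed over leaf -0.059 for BRD2, seed over root -0.21 for GSK1 and leaf over root -0.053 for GSK1. The largest bin gave 0.24 for SERK1 (panicle over root) and 0.18 for D11 (seed over leaf). GSK1 in seed over root was -0.043 with DESeq2, -0.042 with RLE factors and -0.011 with no filter. Without 1 library, D2 ran from -1.32 to 1.43 (panicle over seed), -1.62 to 0.14 (panicle over leaf), -2.45 to 0.60 (seed over leaf) and -0.0087 to 2.74 (seed over root), BRD1 from -0.15 to 0.014 (panicle over root), BRD2 from -0.71 to 0.51 (seed over leaf), and GSK1 from -0.72 to 0.48 (seed over leaf), -0.051 to 0.13 (seed over root) and -0.48 to 0.72 (leaf over root). The fits without scaling factors and with the set term were chosen after seeing the data.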
